A study of Mus musculus with 15 samples.

Results

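The hippocampal RNA of old wild-type mice that received docosahexaenoic acid (DHA) or vehicle was compared gene by gene, in 8 of the 15 mice of the series. These were the 4 WT mice given DHA and the 4 WT mice given vehicle, each chosen by its title. All 8 were female littermates without the Tg2576 transgene, aged 18 to 20 months. DHA was given daily into the stomach at 450 mg/kg for 5 weeks, as a concentrated oil diluted in sesame oil, and the vehicle was sesame oil alone. According to the methods, animals of the study also went through fear conditioning and a water maze. The other 7 mice carried Tg2576, a human APP transgene with the Swedish mutation under the prion promoter, and received vehicle (4 mice) or DHA (3 mice). They entered the fit for the estimate of spread and the comparison of the DHA effect between genotypes.

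DHA is the main omega-3 polyunsaturated fatty acid of neuronal membranes, where it is esterified in phospholipids. Free DHA is a ligand of retinoid X receptors and of the fatty acid receptors of the PPAR family, and it is a precursor of oxygenated lipid mediators. The hippocampus holds the granule cells of the dentate gyrus, the pyramidal cells of CA3 and CA1, and glia, vessels and interneurons. Bulk RNA mixes all of them, so fewer cells of a type and less RNA per cell cannot be told apart.

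Total counts were 21538455 to 46596489 in the 4 vehicle mice and 19265589 to 31109886 in the 4 DHA mice. Levels are given as CPM, counts scaled to the TMM-adjusted library size, and 19536 of 55401 genes passed the filter on low counts. Of the counts from 1 to 20, 76.6% to 81.1% were even in each of the 15 mice, so both mates of most read pairs appear to have been counted and the totals exceed the number of fragments. All 9 markers used to check the tissue were detected in each WT mouse. Prox1, the dentate granule cell factor, was at 60.7 to 107 CPM, the CA1 gene Fibcd1 at 159 to 235 CPM and the CA3 gene Grik4 at 58.9 to 77.2 CPM. The CA3 genes Iyd (1.27 to 2.87 CPM) and Coch (1.26 to 5.14 CPM) were low. The choroid plexus marker Ttr ranged from 33.5 to 5598 CPM among the 8 mice. It stood highest in WT DHA replicate 3, and both groups held mice with little and with much of it. No 2 mice of a group agreed within sampling noise. The mice were littermates housed in groups, and which of them shared a litter or a cage is not given in the sources used here.

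Few genes differed between DHA and vehicle in WT mice, and none passed after adjustment for the number of genes tested. At an unadjusted p under 0.01, 270 genes or 1.38% of those tested were called. This share is little above what a threshold of 0.01 passes when no gene differs. Of the called genes, 153 (0.783% of the genes tested) were higher and 117 (0.599%) were lower with DHA. No gene reached an adjusted p under 0.05 in edgeR (0 genes, smallest adjusted p 0.259), where 1157 genes had an unadjusted p under 0.05. With limma-voom the count was also 0, whereas DESeq2 gave 32 genes, 25 higher and 7 lower. The absolute log2 fold change of the called genes had a median of 0.57 and exceeded 1 for 74 genes. Protein-coding genes made up 228 of the 270, and 46 genes had a mean below 1 CPM. The levels of the 4 DHA and 4 vehicle mice did not overlap for 202 of the 270 genes, beside 5.02% of all genes tested. The genes were called on these same mice, so this contrast follows in large part from the choice. With the counts divided by 2, an alternative chosen after seeing the data, 288 genes were called, 265 of them the same genes. The count depended on single mice. Leaving out a vehicle mouse reduced it to 155 (replicate 1) or 164 (replicate 2), and leaving out replicate 4 of the DHA mice to 178.

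The gene with the lowest p was Wnt4, which encodes a secreted Wnt ligand (ENSMUSG00000036856.4, chromosome 4, 137277489 to 137299726, GRCm38). Wnt4 was measured at 10.6, 8.70, 14.4 and 9.14 CPM in the 4 vehicle mice and at 15.8, 22.6, 21.3 and 23.1 CPM in the 4 DHA mice. Every DHA mouse stood above every vehicle mouse, and the means were 10.7 ± 2.598 and 20.7 ± 3.32 CPM (SD, n = 4 each). This was a 1.93-fold rise (log2 fold change 0.95, standard error 0.179, edgeR p = 5.63e-05, adjusted p = 0.259, exact permutation p = 0.0286). Npas2 came second. It encodes a clock transcription factor that pairs with BMAL1 and binds E-boxes (ENSMUSG00000026077.15, chromosome 1, 39193731 to 39363236). Npas2 was at 32.8, 29.9, 31.4 and 29.1 CPM with vehicle and at 40.5, 48.5, 45.9 and 40.9 CPM with DHA. The groups were well apart (log2 fold change 0.51, standard error 0.0977, edgeR p = 6.11e-05, adjusted p = 0.259, exact permutation p = 0.0286), and the spread within each group was small.

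Of the 12 named genes that rose, Syngr3, a synaptic vesicle protein, was the most abundant, at 160.2, 171, 164 and 174 CPM with vehicle and 203, 209, 204 and 216 CPM with DHA. Its change was the smallest of the 12 but the mice of each group lay within a narrow band (log2 fold change 0.31, standard error 0.0686, edgeR p = 0.000254, adjusted p = 0.355, exact permutation p = 0.0286). Igsf21, a synaptic adhesion protein of the immunoglobulin superfamily, rose from 29.6 ± 2.71 to 43.0 ± 2.96 CPM (SD, n = 4 each; log2 fold change 0.53, edgeR p = 0.000146, exact permutation p = 0.0286). Cplx3, a complexin that acts in vesicle release, was at 9.81, 7.54, 5.91 and 6.13 CPM with vehicle and 10.8, 17.6, 15.2 and 13.9 CPM with DHA (log2 fold change 0.97, edgeR p = 0.000346, exact permutation p = 0.0286). Nxph4, a secreted neurexophilin, was low in both groups, at 1.38, 1.26, 1.96 and 1.20 CPM and 2.38, 3.70, 2.89 and 2.59 CPM (log2 fold change 0.9968, edgeR p = 0.000445, exact permutation p = 0.0286).

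The other named genes that rose had varied roles. Ly6c2 encodes a surface antigen known from monocytes, and it was near the lower limit of detection in vehicle mice, with 13, 7, 8 and 14 reads, against 30, 75, 31 and 41 reads in DHA mice. This gave 0.327 ± 0.0693 and 1.83 ± 0.481 CPM (SD, n = 4 each; log2 fold change 2.48, edgeR p = 9.27e-05, exact permutation p = 0.0286). Its near copy Ly6c1 was at 19.3 ± 3.60 and 23.4 ± 3.75 CPM (log2 fold change 0.28, edgeR p = 0.122, exact permutation p = 0.171), and counts of such copies are uncertain because reads that fit both are lost. Sox11, a transcription factor of immature neurons, rose from 11.1 ± 1.25 to 16.8 ± 2.32 CPM (SD, n = 4 each; log2 fold change 0.59, edgeR p = 0.000219, exact permutation p = 0.0286). Gpr6, a receptor coupled to G proteins, was at 1.08, 0.773, 1.35 and 0.722 CPM with vehicle and 3.08, 1.88, 2.48 and 2.68 CPM with DHA (log2 fold change 1.35, edgeR p = 0.000283, exact permutation p = 0.0286). Traip, a ubiquitin ligase of the replication stress response, stood between 23.5 and 24.4 CPM in the vehicle mice and between 29.6 and 44.3 CPM in the DHA mice (log2 fold change 0.60, edgeR p = 0.000237, exact permutation p = 0.0286). Fam124a rose from 15.9 ± 1.39 to 22.6 ± 1.19 CPM (SD, n = 4 each; log2 fold change 0.51, edgeR p = 8.06e-05, exact permutation p = 0.0286) and Tmem91 from 6.59 ± 1.25 to 10.7 ± 1.27 CPM (SD, n = 4 each; log2 fold change 0.70, edgeR p = 0.000226, exact permutation p = 0.0286). Tmem91 overlaps Exosc5 on the other strand, and without a strand setting in the counting their reads cannot be told apart.

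**Figure D1:**
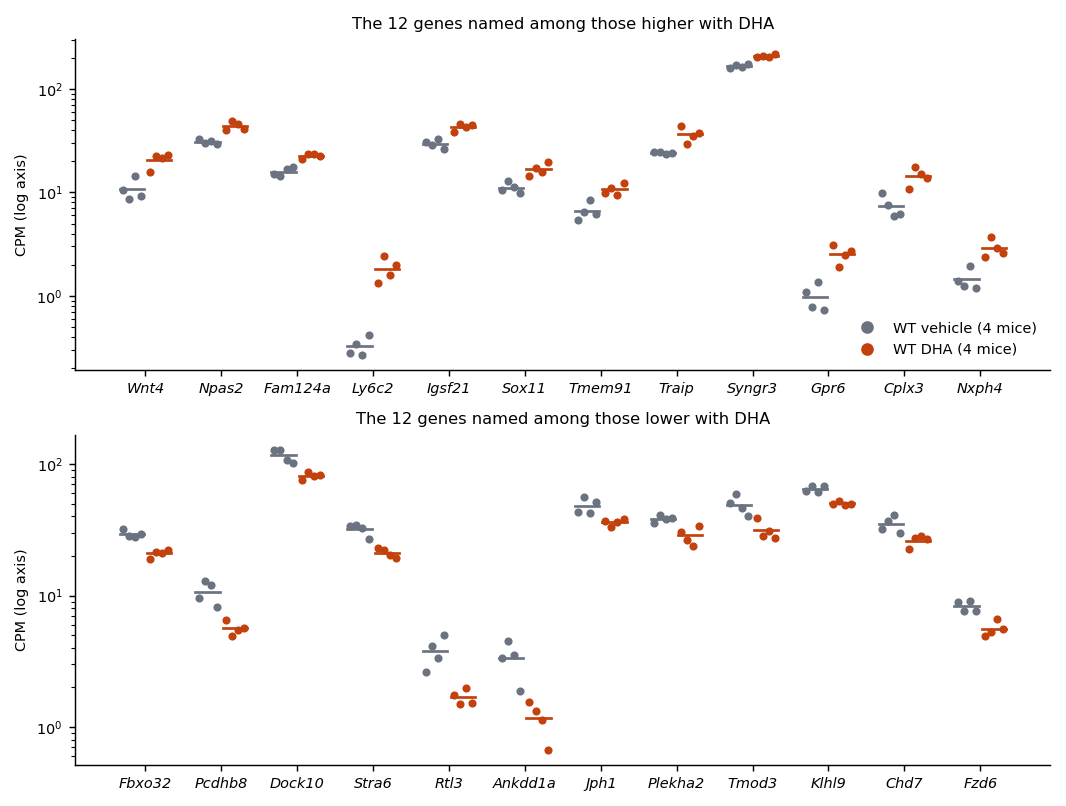
Levels of the 24 genes named by rank in each of the 8 WT mice, as CPM on a log axis. Points are mice, short lines are group means, grey is WT vehicle and orange is WT DHA (4 mice each). In each of the 24 genes the mice of the groups do not overlap, as the choice required, and Ly6c2 shows the widest gap, from 0.327 to 1.83 CPM.

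Fbxo32 had the lowest p among the genes that fell. It encodes atrogin-1, a ubiquitin ligase subunit known from muscle atrophy (ENSMUSG00000022358.7, chromosome 15, 58175879 to 58214932). Fbxo32 was at 32.0, 28.5, 27.7 and 29.5 CPM with vehicle and at 19.04, 21.6, 21.1 and 22.2 CPM with DHA, with every DHA mouse below every vehicle mouse (log2 fold change -0.49, standard error 0.0940, edgeR p = 7.07e-05, adjusted p = 0.259, exact permutation p = 0.0286). Dock10, an exchange factor for small GTPases that is abundant in the dentate gyrus, was at 129, 129, 107 and 102 CPM with vehicle and at 75.9, 87.4, 80.9 and 82.1 CPM with DHA. Its DHA values lay close together and its vehicle values spread more (log2 fold change -0.52, standard error 0.109, edgeR p = 0.000188, adjusted p = 0.355, exact permutation p = 0.0286). Stra6, the receptor through which cells take up retinol, fell from 31.9 ± 3.37 to 21.1 ± 1.73 CPM (SD, n = 4 each; log2 fold change -0.59, edgeR p = 0.000308, exact permutation p = 0.0286). Jph1, a junctophilin that holds the endoplasmic reticulum at the plasma membrane, fell from 48.4 ± 6.80 to 36.1 ± 2.36 CPM (SD, n = 4 each; log2 fold change -0.42, edgeR p = 0.000641, exact permutation p = 0.0286).

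The remaining lower genes had varied roles. Klhl9, an adaptor of a cullin ubiquitin ligase, was at 62.0, 67.7, 61.7 and 67.6 CPM with vehicle and 50.01, 52.3, 48.8 and 49.9 CPM with DHA, narrow bands that lay apart (log2 fold change -0.37, edgeR p = 0.00109, exact permutation p = 0.0286). Chd7, a chromatin remodeller, fell from 35.0 ± 4.999 to 26.2 ± 2.57 CPM (SD, n = 4 each; log2 fold change -0.42, edgeR p = 0.00114, exact permutation p = 0.0286). It lost its call with the length offset (where p was 0.0220) and with that offset beside the replicate block (where p was 0.0191). Tmod3, which caps actin filaments, fell from 49.0 ± 7.77 to 31.4 ± 5.13 CPM (SD, n = 4 each; log2 fold change -0.64, edgeR p = 0.000973, exact permutation p = 0.0286), and Plekha2, a phosphoinositide-binding protein, from 38.3 ± 2.18 to 28.7 ± 4.36 CPM (SD, n = 4 each; log2 fold change -0.41, edgeR p = 0.000724, exact permutation p = 0.0286). Rtl3, a gene derived from a retrotransposon, was low at 2.62, 4.16, 3.38 and 4.99 CPM with vehicle and 1.76, 1.49, 1.96 and 1.53 CPM with DHA (log2 fold change -1.16, edgeR p = 0.000431, exact permutation p = 0.0286). Ankdd1a fell from 3.33 ± 1.09 to 1.17 ± 0.371 CPM (SD, n = 4 each; log2 fold change -1.49, edgeR p = 0.000440, exact permutation p = 0.0286) and overlaps the more abundant Spg21 on the other strand. The exact permutation p of log2 CPM, 0.0286 for each of the 24 genes, is the smallest that 70 arrangements of 4 against 4 mice allow. Groups without overlap always give this p, and the choice of the 24 genes required no overlap. It was thus fixed by the choice and adds no support for them. All 24 had a p under 0.01 without each of the 8 mice in turn, which their choice by lowest p in these same mice favours. Of them, 23, all but Chd7, also had it under each of the 15 settings with all WT mice in which they were tested. Ly6c2 was tested in 14 of these, as it was left out where at least 10 counts in every mouse were required.

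Clock genes form the negative feedback loop in which BMAL1 and its partners CLOCK or NPAS2 drive Per, Cry and Dbp-type genes through E-boxes. Of 19 clock genes tested, 1 rose (Npas2) and 0 fell, beside 0.783% and 0.599% of all genes tested. A positive log2 fold change was seen in 15, beside 9245 of all 19536 genes. The median was 0.16, beside -0.013 over all genes tested. Although Npas2 alone passed, 6 of the 19 did not overlap between the groups, beside 5.02% of all genes tested. This list and those that follow were written with earlier results of these data known, so such counts only describe them. Per1, a repressor of the loop, was at 98.8, 98.1, 106 and 97.3 CPM with vehicle and 126, 128, 132 and 127 CPM with DHA (log2 fold change 0.36, edgeR p = 0.0833, exact permutation p = 0.0286). Tef, a D-box factor, was at 424, 464, 365 and 424 CPM with vehicle and 486, 489, 486 and 482 CPM with DHA (log2 fold change 0.21, edgeR p = 0.0412, exact permutation p = 0.0286). Both were higher in every DHA mouse without passing the threshold in the main fit. Each passed in 2 of the 15 settings with all WT mice and in none with 1 mouse left out. Ciart (log2 fold change 0.35, edgeR p = 0.0860, exact permutation p = 0.0286), Nfil3 (log2 fold change 0.29, edgeR p = 0.0904, exact permutation p = 0.0286) and Dbp (log2 fold change 0.25, edgeR p = 0.184, exact permutation p = 0.0286) also did not overlap. Arntl, which encodes BMAL1, had a log2 fold change of -0.085 (edgeR p = 0.402, exact permutation p = 0.257). The summed level of the list per kb of gene length was 252, 255, 226 and 240.4 CPM per kb with vehicle and 260.4, 289, 270.5 and 268 CPM per kb with DHA, without overlap. Among the 31 lists, 2 sums did not overlap, this one and that of the layer 6b and claustrum list given below. The hour at which the mice were killed is not given in the sources used here.

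The E-box was looked for in the promoters of RefSeq (GRCm38.p6, 250 bases before to 50 after each start), as CACGTG on either strand. None of the 4 elements searched here (E-box, cyclic AMP, NR4A and D-box elements) contains another. The E-box stood in 5 of the 17 clock genes with a promoter in the table (29.4%), beside 10.9% of the 13008 genes tested that had one. The promoter of Npas2 held none. The first E-box of each of these 5 clock genes is printed because they are the list members whose promoters hold the element that NPAS2 is known to bind. The stretches run 5′ to 3′ along the gene, and the E-box is in capitals.
Per1, chr11:69098767-69098804, plus strand: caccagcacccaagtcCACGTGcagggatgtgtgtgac
Tef, chr15:81802530-81802567, plus strand: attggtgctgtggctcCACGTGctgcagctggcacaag
Ciart, chr3:95882323-95882360, minus strand: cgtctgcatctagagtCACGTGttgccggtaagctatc
Bhlhe41, chr6:145865552-145865589, minus strand: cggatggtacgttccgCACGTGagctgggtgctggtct
Cry1, chr10:85185093-85185130, minus strand: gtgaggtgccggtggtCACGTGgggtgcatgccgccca
The element began 166, 127, 116, 153 and 60 bases before the start of these 5 genes, in this order. Their log2 fold changes were 0.36, 0.21, 0.35, 0.16 and 0.059, and none of them passed p under 0.01. Among the called genes with a promoter, 7 of 100 that rose (7.0%) and 12 of 77 that fell (15.6%) held an E-box. The match is a description of letters and not of binding.

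Immediate early genes are switched on within minutes of synaptic activity, in part through the cyclic AMP element. Of 34 tested, 2 rose and 1 fell, beside 0.783% and 0.599% of all genes tested. A positive log2 fold change was seen in 28, beside 9245 of all 19536 genes, and the median of the list was 0.18. Sertad1, a regulator of cyclin-dependent kinase, was at 6.78, 5.99, 7.16 and 6.79 CPM with vehicle and 9.15, 9.15, 10.2 and 10.8 CPM with DHA (log2 fold change 0.56, standard error 0.135, edgeR p = 0.000708, adjusted p = 0.404, exact permutation p = 0.0286). Nr4a2, the orphan nuclear receptor Nurr1, was at 56.7, 49.5, 41.8 and 53.0 CPM with vehicle and 70.3, 87.8, 63.6 and 69.1 CPM with DHA (log2 fold change 0.53, edgeR p = 0.00444, exact permutation p = 0.0286). Neither gene overlapped between the groups. The p of Nr4a2 rose above 0.01 without WT DHA replicate 2 (0.0211), WT vehicle replicate 3 (0.0184) and WT vehicle replicate 2 (0.0116). Ptgs2, the inducible cyclooxygenase, was at 25.6, 24.1, 17.96 and 26.0 CPM with vehicle and 20.1, 17.2, 12.3 and 13.8 CPM with DHA, with 1 DHA mouse within the vehicle range (log2 fold change -0.56, edgeR p = 0.00206, exact permutation p = 0.0571). The classical activity genes Fos (log2 fold change 0.10, edgeR p = 0.818, exact permutation p = 0.686), Arc (log2 fold change 0.41, edgeR p = 0.257, exact permutation p = 0.200) and Egr1 (log2 fold change 0.37, edgeR p = 0.124, exact permutation p = 0.0571) did not pass. The cyclic AMP element, TGACGTCA, was found in 4 of 100 promoters of genes that rose (4.0%), 4 of 77 that fell (5.19%) and 3.24% of all genes tested with a promoter.
The element of Gpr6 and of Sstr2, both receptors that rose, is shown in capitals.
Gpr6, chr10:41072345-41072384, minus strand: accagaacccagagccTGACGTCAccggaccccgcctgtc
Sstr2, chr11:113619253-113619292, plus strand: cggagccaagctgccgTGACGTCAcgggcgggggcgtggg
The NR4A element AAAGGTCA stood in 0 of 100 and 1 of 77 of these promoters (1.25% of all) and the D-box TTATGTAA in 1 of 100 and 1 of 77 (0.838% of all).

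No gene of fatty acid handling passed. Of 29 genes of uptake, desaturation and activation, 0 passed, with a median log2 fold change of -0.022. The lowest p in this list was that of the desaturase family member Fads6, at 45.9, 41.1, 38.9 and 41.1 CPM with vehicle and 36.7, 36.9, 37.99 and 32.7 CPM with DHA (log2 fold change -0.21, edgeR p = 0.0284, exact permutation p = 0.0286). Elovl5, which elongates polyunsaturated fatty acids, fell short of the threshold as well (66.0 ± 3.06 and 55.0 ± 8.27 CPM, SD, n = 4 each; log2 fold change -0.26, edgeR p = 0.0374, exact permutation p = 0.0286). Neither of the pair overlapped between the groups, with the DHA mice lower. Of 26 fatty acid receptors and oxidation targets, 0 passed, with a median of 0.013. Rxrg, a retinoid X receptor, came closest and overlapped between the groups (log2 fold change 0.57, edgeR p = 0.0740, exact permutation p = 0.171).

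Most cholesterol and fatty acid synthesis genes had positive values, without a call. Of 28 tested, 0 passed, 25 had a positive log2 fold change, beside 9245 of all 19536 genes, and the median of the list was 0.11. The enzymes of the mevalonate pathway Pmvk (36.5 to 45.5 CPM; log2 fold change 0.32, edgeR p = 0.0219, exact permutation p = 0.0571) and Mvd (21.0 to 26.1 CPM; log2 fold change 0.31, edgeR p = 0.0261, exact permutation p = 0.0286) had the lowest p. Among 25 genes of eicosanoids and lipid mediators, with a median of -0.074, 2 fell and 0 rose, beside 0.599% and 0.783% of all genes tested. These were Ptgs2, given above, and Gpr37, a receptor for prosaposin that oligodendrocytes express. Gpr37 was at 104.8, 103, 96.5 and 91.6 CPM with vehicle and 69.0, 74.9, 85.6 and 67.5 CPM with DHA (log2 fold change -0.42, edgeR p = 0.00447, exact permutation p = 0.0286), without overlap. It lost its call with the length offset beside the replicate block (edgeR p 0.0118) and without WT DHA replicate 1 (0.0181), WT DHA replicate 4 (0.0169), WT vehicle replicate 1 (0.0139) and WT vehicle replicate 2 (0.0129).

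Of 32 antioxidant genes, with a median log2 fold change of 0.091, 1 rose and 0 fell, beside 0.783% and 0.599% of all genes tested. The gene was Gpx1, the cytosolic glutathione peroxidase, at 39.7, 43.2, 38.5 and 44.8 CPM with vehicle and 48.7, 46.3, 59.0 and 66.3 CPM with DHA (log2 fold change 0.41, standard error 0.116, edgeR p = 0.00267, adjusted p = 0.560, exact permutation p = 0.0286). It lost its call without WT DHA replicate 4 (0.0160) and WT DHA replicate 3 (0.0101). Slc7a11, the cystine transporter, did not pass, although its mean was 21.3 ± 3.44 CPM with vehicle and 39.9 ± 11.8 CPM with DHA (SD, n = 4 each; log2 fold change 0.90, edgeR p = 0.0138, exact permutation p = 0.0571). No chaperone of 38 passed, and Dnajb1, a partner of HSP70, had the lowest p (0.0119). Of 12 mitochondrially encoded genes 0 passed, and mt-Nd3 had a log2 fold change of -0.27 (edgeR p = 0.433, exact permutation p = 0.600). Of 20 genes known to respond to glucocorticoids, 1 fell, beside 0.599% of all genes tested. This was Nr3c2, the mineralocorticoid receptor, at 159, 192, 164 and 185 CPM with vehicle and 160.5, 116, 127 and 141 CPM with DHA (log2 fold change -0.37, edgeR p = 0.00704, exact permutation p = 0.0571). WT DHA replicate 1 lay within the vehicle range. The call was lost with 1 surrogate variable (edgeR p 0.0108), with the replicate block (edgeR p 0.0125) and without WT DHA replicate 2 (0.0305), WT vehicle replicate 2 (0.0231), WT DHA replicate 3 (0.0230), WT vehicle replicate 4 (0.0211) and WT DHA replicate 4 (0.0114).

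Few synaptic genes passed. Of 34 presynaptic genes, 1 rose and 0 fell (median 0.0051), beside 0.783% and 0.599% of all genes tested. Of 36 postsynaptic genes 0 passed (median -0.075, lowest edgeR p 0.0523 for the NMDA receptor subunit Grin2a). The presynaptic gene was Stx1a, which encodes the membrane SNARE syntaxin-1A. Stx1a was at 104, 108, 115 and 108 CPM with vehicle and 144, 159.7, 155 and 164 CPM with DHA, bands that lay far apart (log2 fold change 0.52, standard error 0.144, edgeR p = 0.00226, adjusted p = 0.540, exact permutation p = 0.0286). Its partner Vamp2, the vesicle SNARE, was at 918, 986, 984 and 1058 CPM with vehicle and 1152, 1170, 1095 and 1279 CPM with DHA, higher in every DHA mouse but short of the threshold (log2 fold change 0.25, edgeR p = 0.0150, exact permutation p = 0.0286). Of 35 genes of GABA neurons and neuropeptides, with a median of -0.033, 2 rose and 0 fell, beside 0.783% and 0.599% of all genes tested. Cbln4, a secreted cerebellin that organises synapses, was at 11.1, 10.3, 9.38 and 10.5 CPM with vehicle and 22.4, 27.0, 22.7 and 16.3 CPM with DHA (log2 fold change 1.098, standard error 0.285, edgeR p = 0.00149, adjusted p = 0.532, exact permutation p = 0.0286). Tac2, the precursor of neurokinin B, rose from 2.94 ± 1.01 to 5.22 ± 0.914 CPM (SD, n = 4 each; log2 fold change 0.82, edgeR p = 0.00410, exact permutation p = 0.0571), and lost its call without WT vehicle replicate 2 (0.0167), WT vehicle replicate 1 (0.0165), WT DHA replicate 2 (0.0134), WT DHA replicate 3 (0.0107) and WT DHA replicate 4 (0.0102).

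**Figure D2:**
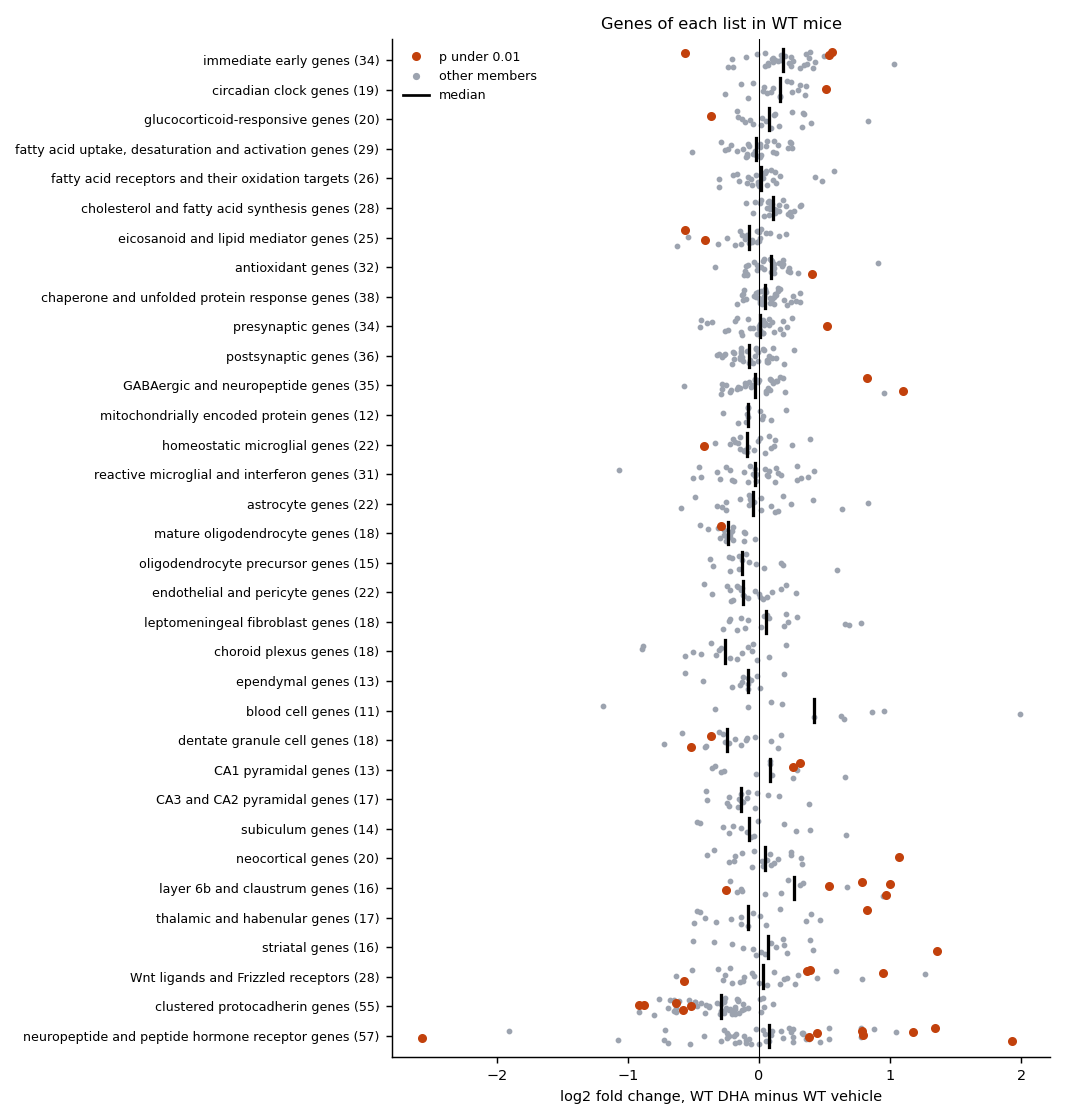
Log2 fold change of each tested member of 31 gene lists and 3 gene families in WT mice (horizontal axis, DHA minus vehicle), with the number of members tested in brackets. Orange points have p under 0.01, grey points do not, and black lines are medians. The lists of mature oligodendrocyte genes (median -0.24) and clustered protocadherins (median -0.29) lie almost wholly left of 0, and most immediate early genes lie to its right (median 0.18).

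The 3 gene families that follow were chosen as whole families after their values had been seen, so their counts describe them and support nothing. Wnt ligands and Frizzled receptors carry a signal that acts on axons, synapses and vessels. Of 28 tested, 3 ligands rose and 1 receptor fell, beside 0.783% higher and 0.599% lower among all genes tested. Wnt7b was at 44.5, 47.7, 46.7 and 51.9 CPM with vehicle and 59.8, 63.6, 61.9 and 64.8 CPM with DHA (log2 fold change 0.39, edgeR p = 0.000855, exact permutation p = 0.0286), and Wnt7a rose from 16.2 ± 1.65 to 20.9 ± 1.57 CPM (SD, n = 4 each; log2 fold change 0.37, edgeR p = 0.00672, exact permutation p = 0.0286). Neither ligand overlapped between the groups. Both lost their call with the GC offset (edgeR p 0.0111 and 0.0140), and Wnt7a also without WT DHA replicate 4 (0.0255), WT vehicle replicate 4 (0.0252), WT vehicle replicate 1 (0.0202), WT vehicle replicate 2 (0.0150), WT DHA replicate 3 (0.0135) and WT DHA replicate 2 (0.0121). The receptor was Fzd6, at 8.95, 7.63, 9.08 and 7.64 CPM with vehicle and 4.88, 5.32, 6.62 and 5.56 CPM with DHA (log2 fold change -0.58, edgeR p = 0.00135, exact permutation p = 0.0286). The median over the family was 0.030, with 14 members positive and 14 negative.

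Clustered protocadherins are adhesion molecules that give single neurons a surface identity. Of 55 tested, 5 fell and 0 rose, beside 0.599% lower and 0.783% higher among all genes tested. A negative log2 fold change was seen in 50 of them, beside 10291 of all 19536 genes, and the median was -0.29. The tilt was seen in each cluster, with 11 of 12 alpha, 20 of 22 beta and 19 of 21 gamma genes negative (medians -0.29, -0.26 and -0.33). Pcdhb8 was at 9.51, 12.9, 11.98 and 8.24 CPM with vehicle and 6.51, 4.90, 5.48 and 5.66 CPM with DHA (log2 fold change -0.92, standard error 0.180, edgeR p = 8.59e-05, adjusted p = 0.259, exact permutation p = 0.0286). Pcdhb3 (16.5 to 11.5 CPM; log2 fold change -0.52, edgeR p = 0.00146, exact permutation p = 0.0286), Pcdhb6 (8.12 to 4.42 CPM; log2 fold change -0.87, edgeR p = 0.00154, exact permutation p = 0.0857), Pcdhga4 (7.62 to 4.91 CPM; log2 fold change -0.64, edgeR p = 0.00687, exact permutation p = 0.0286) and Pcdhb11 (7.61 to 5.08 CPM; log2 fold change -0.58, edgeR p = 0.00816, exact permutation p = 0.0286) were the others. Pcdhga4 lost its call with 1 surrogate variable (edgeR p 0.0101), with counts thinned to the smallest library (edgeR p 0.0162) and without WT vehicle replicate 1 (0.0266), WT DHA replicate 1 (0.0236), WT DHA replicate 4 (0.0143), WT DHA replicate 2 (0.0142), WT vehicle replicate 3 (0.0131) and WT vehicle replicate 2 (0.0128). Pcdhb11 lost its call with 1 surrogate variable (edgeR p 0.0107), with the GC offset (edgeR p 0.0134) and without WT vehicle replicate 3 (0.0280), WT DHA replicate 1 (0.0250), WT vehicle replicate 2 (0.0243), WT DHA replicate 2 (0.0170), WT DHA replicate 4 (0.0162) and WT DHA replicate 3 (0.0122). The summed level was 107, 117, 98.8 and 96.0 CPM per kb with vehicle and 83.1, 94.8, 85.3 and 75.5 CPM per kb with DHA, without overlap. In Tg2576 mice the median of the same genes was 0.24. These genes lie side by side on chromosome 18, resemble each other, and those of the alpha and gamma clusters share their last exons, so their counts are not independent and reads that fit several of them are lost.

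Receptors for neuropeptides and peptide hormones contributed 8 of 57 tested, 7 higher and 1 lower, beside 1.38% of all genes tested (0.783% higher and 0.599% lower). Sstr2, a somatostatin receptor, was at 10.4, 12.5, 11.3 and 7.76 CPM with vehicle and 12.8, 23.8, 14.5 and 20.8 CPM with DHA (log2 fold change 0.78, edgeR p = 0.00195, exact permutation p = 0.0286). It overlaps Slc39a11 on the other strand, which had more reads (mean 647 against 384 in the WT mice). Mchr1, the receptor of melanin-concentrating hormone, was at 19.6, 21.1, 19.6 and 22.1 CPM with vehicle and 28.5, 23.4, 26.1 and 29.6 CPM with DHA (log2 fold change 0.38, edgeR p = 0.00172, exact permutation p = 0.0286). Ntsr1, a neurotensin receptor, rose from 5.72 ± 2.03 to 9.99 ± 0.951 CPM (SD, n = 4 each; log2 fold change 0.80, edgeR p = 0.00270, exact permutation p = 0.0286). The groups did not overlap for these 3 genes, of which Mchr1 passed without each mouse. Sstr2 lost its call without WT DHA replicate 2 (0.0115) and Ntsr1 without WT vehicle replicate 3 (0.0116) and WT vehicle replicate 2 (0.0109). The receptors of thyrotropin-releasing hormone, Trhr (1.48 to 3.68 CPM; log2 fold change 1.34, edgeR p = 0.000674, exact permutation p = 0.0571), of the peptide QRFP, Qrfpr (1.098 to 2.46 CPM; log2 fold change 1.17, edgeR p = 0.00355, exact permutation p = 0.0857), of parathyroid hormone, Pth1r (8.72 to 11.9 CPM; log2 fold change 0.44, edgeR p = 0.00943, exact permutation p = 0.0286), and of galanin, Galr1, also rose. Pth1r was the least steady, with p over 0.01 under 9 of 15 settings and without WT DHA replicate 3 (0.0403), WT vehicle replicate 3 (0.0284), WT vehicle replicate 4 (0.0190), WT DHA replicate 1 (0.0188), WT vehicle replicate 2 (0.0185), WT DHA replicate 4 (0.0148) and WT vehicle replicate 1 (0.0122). Qrfpr lost its call without WT DHA replicate 2 (0.0226) and WT vehicle replicate 4 (0.0145). Galr1 had 4, 0, 4 and 6 reads in the vehicle mice and 8, 18, 10 and 4 in the DHA mice (edgeR p = 0.00682, exact permutation p = 0.0286), and p rose to 0.0177 with the replicate block, to 0.0188 with the length offset beside it, and above 0.01 without WT DHA replicate 2 (0.0268), WT vehicle replicate 1 (0.0211), WT DHA replicate 3 (0.0165), WT vehicle replicate 2 (0.0148) and WT vehicle replicate 3 (0.0104). The melanocortin receptor Mc3r fell (70, 6, 24 and 12 against 4, 6, 2 and 0 reads, edgeR p = 0.00511, exact permutation p = 0.0286), a call lost with limma-voom (p 0.0121) and without WT DHA replicate 4 (0.0152) and WT DHA replicate 3 (0.0134). Both of these genes had few reads, and WT vehicle replicate 1 held most of those of Mc3r.

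Few glial genes were called. Of 18 mature oligodendrocyte genes, 1 fell and 0 rose, beside 0.599% and 0.783% of all genes tested. All 18 had a negative log2 fold change, beside 10291 of all 19536 genes, and the median of the list was -0.24. Tspan2, a tetraspanin of myelin, was at 98.3, 104, 90.3 and 91.1 CPM with vehicle and 73.8, 72.9, 87.5 and 79.5 CPM with DHA (log2 fold change -0.29, edgeR p = 0.00427, exact permutation p = 0.0286), a call lost with the GC offset (edgeR p 0.0222) and without WT vehicle replicate 2 (0.0194), WT DHA replicate 1 (0.0193), WT DHA replicate 2 (0.0170) and WT vehicle replicate 1 (0.0120). The summed level of the list was 1669, 1561, 1604 and 1600 CPM per kb with vehicle and 1152, 1252, 1675 and 1586 CPM per kb with DHA. It was low in WT DHA replicates 1 and 2 and within or near the vehicle range in the other two DHA mice. No gene of 15 oligodendrocyte precursor genes passed (median -0.13), and Olig2, the lineage factor, came closest (37.1 to 28.6 CPM; log2 fold change -0.38, edgeR p = 0.0586, exact permutation p = 0.0286).

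Among homeostatic microglial genes, the purinergic receptor P2ry12 was lower in every DHA mouse but did not pass (log2 fold change -0.33, edgeR p = 0.0541, exact permutation p = 0.0286). Reactive microglial and interferon genes (0 of 31, lowest p 0.0601 for the integrin Itgax) and astrocyte genes (0 of 22, lowest p 0.0328 for the protease inhibitor Serpina3n) did not pass. The same held for 22 endothelial and pericyte genes (lowest p 0.0909, Kdr), 18 leptomeningeal genes (lowest p 0.209, Col3a1), 18 choroid plexus genes (lowest p 0.312, Prlr) and 13 ependymal genes (lowest p 0.208, Tmem212). Of 11 blood cell genes 0 passed, with a median of 0.42. The haemoglobin gene Hba-a2 had 22.3, 20.9, 8.63 and 114 CPM in the DHA mice, and its p of 0.0341 became 0.281 without WT DHA replicate 4.

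**Figure D3:**
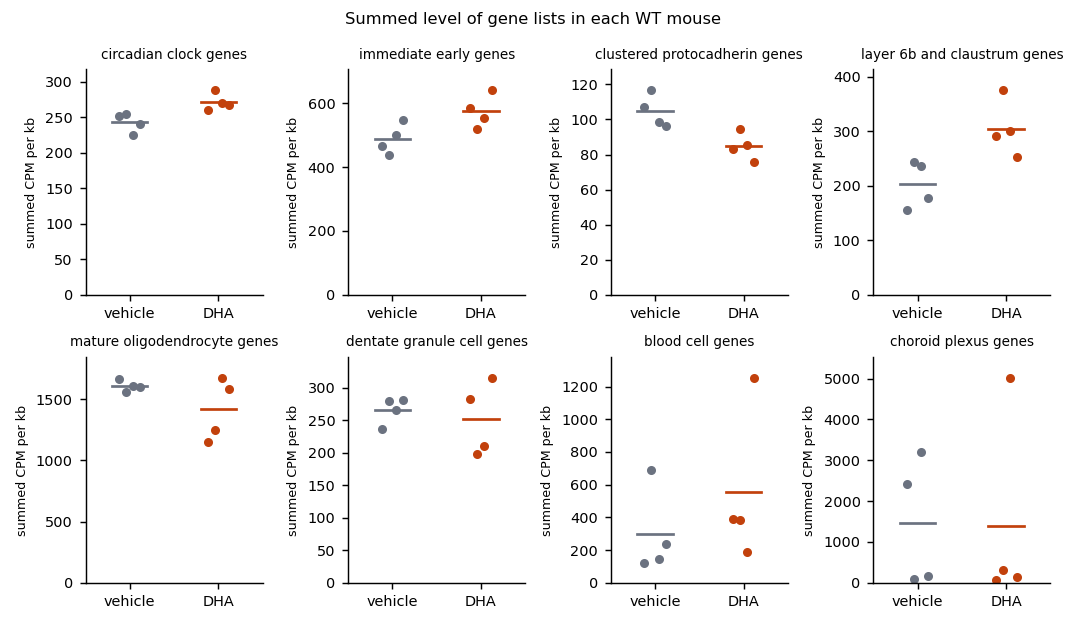
Summed level of 8 gene lists in each WT mouse, as CPM per kb of gene length on axes that start at 0. Points are mice, lines are group means, grey is vehicle and orange is DHA (4 mice each). The clock, protocadherin and layer 6b lists do not overlap between the groups, and the choroid plexus list runs from 62.6 to 5022.

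The called markers of hippocampal fields differed in direction. Of 18 dentate granule cell genes, 15 had a negative log2 fold change, beside 10291 of all 19536 genes, and their median was -0.24. Beside 0.599% lower and 0.783% higher among all genes tested, 2 of the 18 fell and 0 rose. These were Dock10, given above, and Prox1, at 86.4, 107, 75.8 and 82.6 CPM with vehicle and 68.8, 60.7, 64.4 and 78.9 CPM with DHA (log2 fold change -0.37, edgeR p = 0.00768, exact permutation p = 0.0571). Prox1 overlapped between the groups. It lost its call with the length offset (edgeR p 0.0119), with the GC offset (edgeR p 0.0126), with the length offset beside the replicate block (edgeR p 0.0102) and without WT vehicle replicate 2 (0.0429), WT DHA replicate 2 (0.0291), WT DHA replicate 3 (0.0231), WT DHA replicate 1 (0.0169) and WT vehicle replicate 1 (0.0135). The summed level of the dentate list was 236, 279, 265 and 282 CPM per kb with vehicle and 283, 198, 211 and 316 CPM per kb with DHA, so 2 DHA mice stood below and 2 above all vehicle mice. Of 13 CA1 genes, 2 rose and 0 fell (median 0.085), beside 0.783% and 0.599% of all genes tested. The log2 fold change was positive in 8 and negative in 5, beside 9245 and 10291 of all 19536 genes. Fibcd1, the CA1 marker of the tissue check given above, overlapped between the groups and did not pass (log2 fold change 0.097, edgeR p = 0.566, exact permutation p = 0.514). Wfs1, a protein of the endoplasmic reticulum, was at 178, 186, 173 and 178 CPM with vehicle and 245, 203, 225 and 213 CPM with DHA (log2 fold change 0.31, edgeR p = 0.00238, exact permutation p = 0.0286). Mpped1 rose from 252 ± 18.7 to 302 ± 11.2 CPM (SD, n = 4 each; log2 fold change 0.26, edgeR p = 0.00277, exact permutation p = 0.0286). Neither gene overlapped between the groups, and both lost their call with the GC offset (edgeR p 0.0253 and 0.0189). Without WT DHA replicate 1 (0.0104) Wfs1 did not pass, nor did Mpped1 without WT vehicle replicate 3 (0.0112) and WT DHA replicate 2 (0.0104). Of 17 CA3 and CA2 genes (lowest p 0.0137, St18) and 14 subiculum genes 0 passed.

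The 31 lists were written with earlier results of these data known, so a ranking among them is a description only. Of these lists, that of layer 6b and claustrum genes held the largest share of calls, with 4 of 16 higher and 1 lower, beside the 1.38% of all genes. Its members are markers of deep cortical cells and of the claustrum, which lie outside the hippocampus, although several of them are also expressed within it. Cplx3, Nxph4, Sstr2 and Nr4a2 rose and the potassium channel subunit Kcnab1 fell (125 to 105.4 CPM; log2 fold change -0.25, edgeR p = 0.00726, exact permutation p = 0.0571). Kcnab1 is named after its values had been seen, and its p was above 0.01 under 5 of 15 settings and without 6 of the 8 mice. The summed level was 155, 243, 236 and 177 CPM per kb with vehicle and 290.4, 376, 301 and 252 CPM per kb with DHA, without overlap (as for 2 of the 31 lists), and the median log2 fold change was 0.27. Nnat, which encodes neuronatin and is named after its values had been seen, made up 74.3% of that level. It was at 179.7, 334, 333 and 218 CPM with vehicle and 414, 527, 423 and 329.9 CPM with DHA, overlapped between the groups and did not pass (log2 fold change 0.67, edgeR p = 0.0328, exact permutation p = 0.0857). Without Nnat, a sum added after seeing the data, the list was at 57, 60.8, 53.5 and 58.1 CPM per kb with vehicle and 64.3, 87.6, 69.5 and 71.5 CPM per kb with DHA, still without overlap. Ccn2, a secreted matrix protein that marks layer 6b, did not pass (7.70 ± 3.41 and 14.7 ± 3.40 CPM, SD, n = 4 each; log2 fold change 0.94, edgeR p = 0.0313, exact permutation p = 0.0571). Of 20 neocortical genes 1 rose, beside 0.783% of all genes tested. This was Otof, which encodes otoferlin. It was at 9.49, 9.08, 10.5 and 7.73 CPM with vehicle and 15.8, 24.7, 22.0 and 14.6 CPM with DHA (log2 fold change 1.07, edgeR p = 0.00325, exact permutation p = 0.0286), and lost its call with 1 surrogate variable (edgeR p 0.0113), with the length offset beside the replicate block (edgeR p 0.0106) and without WT DHA replicate 2 (0.0129) and WT vehicle replicate 4 (0.0115). The summed neocortical level was 138 to 157 CPM per kb with vehicle and 144 to 164 CPM per kb with DHA. Of 17 thalamic and habenular genes 1 rose, Tac2, and Slc17a6, the glutamate transporter that defines that list, had a log2 fold change of -0.45 (edgeR p = 0.0676, exact permutation p = 0.229). Of 16 striatal genes 1 rose, Gpr6. This count and that of the thalamic list also stand beside 0.783% of all genes tested. Whether the boundary of the dissection had a part in these differences was not tested.

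In all, 22 of the 669 different genes of the 31 lists passed, 14 higher and 8 lower, beside 1.38% of all genes tested (0.783% higher and 0.599% lower), and 16 lists had 0 calls. A few other called genes are named here after their values had been seen. The growth cone protein Gap43 rose from 129 ± 32.8 to 180.3 ± 19.6 CPM (SD, n = 4 each; log2 fold change 0.48, edgeR p = 0.00474, exact permutation p = 0.0571), a call lost with 1 surrogate variable (edgeR p 0.0116), in a fit of only the 8 WT mice (edgeR p 0.0143) and without WT vehicle replicate 2 (0.0226), WT vehicle replicate 1 (0.0209), WT DHA replicate 4 (0.0156) and WT DHA replicate 2 (0.0151). Cyp46a1, the enzyme by which neurons turn over cholesterol, rose from 159.8 ± 9.04 to 194 ± 5.05 CPM (SD, n = 4 each; log2 fold change 0.28, edgeR p = 0.00666, exact permutation p = 0.0286), and lost its call with the GC offset (edgeR p 0.0285) and without WT vehicle replicate 2 (0.0258), WT DHA replicate 4 (0.0168), WT vehicle replicate 1 (0.0155), WT DHA replicate 1 (0.0143), WT DHA replicate 3 (0.0142) and WT vehicle replicate 3 (0.0110). Maml2, a coactivator of Notch signalling, fell from 20.1 ± 1.38 to 14.3 ± 1.73 CPM (SD, n = 4 each; log2 fold change -0.49, edgeR p = 0.00145, exact permutation p = 0.0286) and passed without each mouse. The Notch ligand Jag1 fell from 9.28 ± 1.52 to 6.25 ± 0.167 CPM (SD, n = 4 each; log2 fold change -0.57, edgeR p = 0.00206, exact permutation p = 0.0286), a call lost without WT vehicle replicate 2 (0.0112). Tfrc, the transferrin receptor, fell from 62.7 ± 10.7 to 46.2 ± 5.27 CPM (SD, n = 4 each; log2 fold change -0.44, edgeR p = 0.00408, exact permutation p = 0.0286), a call lost without WT vehicle replicate 2 (0.0198), WT DHA replicate 4 (0.0170), WT DHA replicate 3 (0.0141) and WT vehicle replicate 1 (0.0123).

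Calls were unevenly spread over genes of different length and base composition. In the tertile of tested genes with the shortest length, 59 rose and 18 fell, whereas in the longest tertile 18 rose and 64 fell. The median length was 2987 bases for genes that rose, 5474 bases for those that fell and 3693 bases for all genes tested. By GC content of the longest transcript, 92 genes rose and 21 fell in the highest tertile, and 21 rose and 57 fell in the lowest. The median log2 fold change of all genes was 0.056 in the highest and -0.078 in the lowest GC tertile. With the GC offset these tertiles held 52 higher and 45 lower, and 35 higher and 45 lower genes, and 214 of the 270 genes were called again among 258. With the length offset, the short tertile held 68 higher and 26 lower genes and the long tertile 44 and 66. The difference between the highest and lowest GC tertile was -0.163, -0.096, 0.107 and -0.118 on the log2 scale in the 4 vehicle mice. It was 0.00045, -0.024, 0.092 and 0.200 in the 4 DHA mice. WT vehicle replicate 3 lay among the DHA mice. The part of base composition and length in the calls was not tested beyond these offsets.

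**Figure D4:**
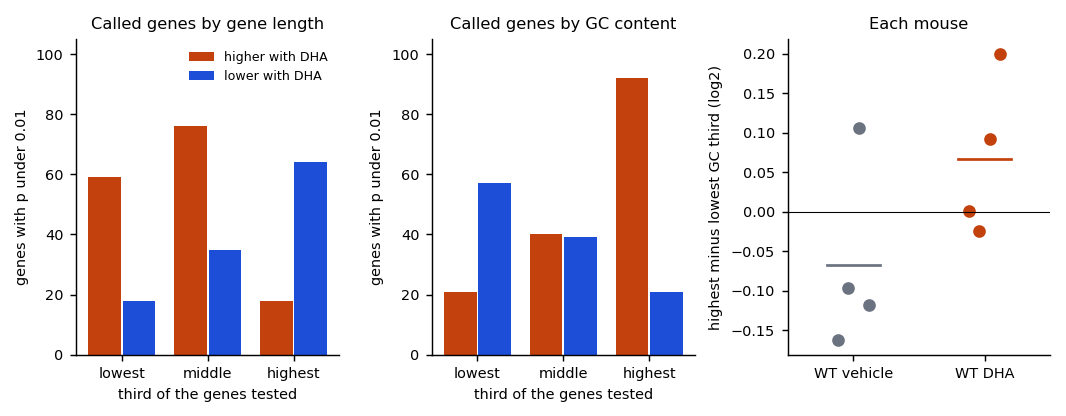
Numbers of genes with p under 0.01 that were higher (orange) or lower (blue) with DHA in WT mice, by tertiles of gene length (left) and of GC content (middle), and for each mouse the difference of the highest and lowest GC tertile of genes from their mean over the WT mice (right, log2 scale, lines are group means). The highest GC tertile holds 92 higher and 21 lower genes, and 1 vehicle mouse, at 0.107, lies among the DHA mice.

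The DHA effect was also compared with that in Tg2576 mice, where 69 genes (0.353%) passed p under 0.01. The interaction, which is the WT effect minus the Tg2576 effect, passed p under 0.01 for 162 genes (0.829% of those tested), with 0 at an adjusted p under 0.05 in edgeR. The shares of 0.353% and 0.829% are below what a threshold of 0.01 passes when no gene differs. The interaction count fell to 87 when vehicle replicate 1 of the WT mice was left out and to 90 when DHA replicate 4 was. Since the WT effect is part of the interaction, its overlap with the calls in WT mice is given only as a description, namely 64 of the 270 genes. Of these 64, 62 had the opposite sign in Tg2576 mice, which their choice by both tests favours. Of all 270 called genes, 148 had the same sign in Tg2576 mice as in WT mice. The median log2 fold change of the genes that rose was 0.58 in WT and 0.035 in Tg2576 mice, and that of the genes that fell was -0.57 and 0.0057. Of the 24 genes named by rank, 10 had an interaction p under 0.01, 5 that rose and 5 that fell in WT mice, and 1 of the 24, Fbxo32, had a p under 0.01 in Tg2576 mice. The sign was the same in both genotypes for 16 of the 24.

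Sertad1 had the lowest interaction p of the named genes. Its log2 fold change was 0.56 in WT and -0.47 in Tg2576 mice (interaction 1.02, standard error 0.200, adjusted p = 0.845). Ly6c2 (2.48 in WT, -0.57 in Tg2576; interaction 3.05, standard error 0.687, adjusted p = 0.845), Traip (0.60 and -0.20; interaction 0.80, standard error 0.193, adjusted p = 0.845) and Gpx1 (0.41 and -0.26; interaction 0.67, standard error 0.171, adjusted p = 0.845) also had opposite signs. Wnt4 (0.074 in Tg2576 mice; interaction 0.87, standard error 0.262, adjusted p = 0.845) and Npas2 (0.00012 in Tg2576 mice; interaction 0.51, standard error 0.144, adjusted p = 0.845) were near 0 there. Among the genes that fell in WT mice, Stra6 (-0.59 and 0.19; interaction -0.78, standard error 0.193, adjusted p = 0.845) and Pcdhb8 (-0.92 and 0.17; interaction -1.08, standard error 0.263, adjusted p = 0.845) had opposite signs. All of these passed an unadjusted interaction p under 0.01. In WT and Tg2576 vehicle mice the mean CPM was 6.68 and 10.6 for Sertad1, 0.327 and 2.12 for Ly6c2, and 24.1 and 30.8 for Traip. It was 41.5 and 56.85 for Gpx1, 10.7 and 16.2 for Wnt4, and 30.8 and 34.2 for Npas2. For Stra6 it was 31.9 and 21.8, and for Pcdhb8 10.7 and 7.07. Each Tg2576 vehicle mean was shifted from the WT vehicle mean in the direction of the WT DHA mean. Whether this had a part in the interactions was not tested. The effects on Fbxo32 (-0.49 in WT and -0.35 in Tg2576 mice; interaction -0.14, standard error 0.138, adjusted p = 0.859), Nr4a2 (0.53 and 0.60; interaction -0.065, standard error 0.239, adjusted p = 0.967) and Cbln4 (1.098 and 0.83; interaction 0.27, standard error 0.416, adjusted p = 0.909) had the same sign in both genotypes. The interactions of these 3 genes did not pass, which does not show that the effects were equal.

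**Figure D5:**
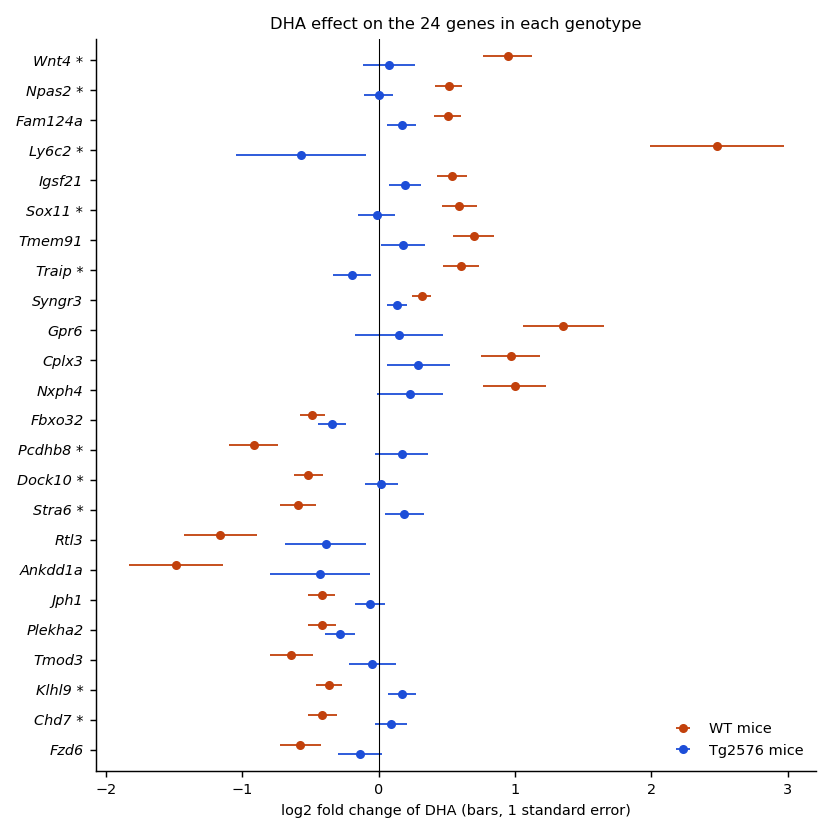
Log2 fold change of DHA against vehicle for the 24 genes named by rank, in WT mice (orange) and Tg2576 mice (blue), with bars of 1 standard error. A star marks the 10 genes with an interaction p under 0.01, and since the genes were chosen on the WT values only the Tg2576 values are free of that choice.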

How the data were processed

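RNA of the hippocampus was sequenced on 1 lane in all 15 mice. The deposited files hold raw counts per gene, which the authors made with STAR 2.6.1c and featureCounts 1.6.0 on GRCm38 with the GENCODE annotation. The file headers show neither a strand nor a paired-end option, so mates appear to have been counted as single reads, reads of overlapping genes on opposite strands cannot be told apart, and reads that fit several genes were left out. The methods and the labels name different library kits. Genes with low counts were removed (filterByExpr, minimum count 10), counts were TMM scaled, and all 15 mice in 4 groups were fitted with edgeR 4.0.16 (quasi-likelihood test, robust, R 4.3.3), with Benjamini-Hochberg adjustment. Calls used an unadjusted p under 0.01. The two-sided exact permutation test compared log2 CPM (prior count 2) of 4 with 4 mice. Scripts were tested on simulated data. Named were the 12 genes of lowest p in each direction with a mean of at least 1 CPM, no overlap between groups and no model name, and up to 3 called members of each list, or its member of lowest p. Exceptions are named as such, and some genes are not reported here. The gene lists, the promoter elements and the comparison itself were chosen with earlier results of these data known. GC content was that of the longest transcript of each gene. Alternatives were DESeq2 1.42.0, limma-voom (limma 3.58.1), sva 3.50.0 with 1 surrogate variable, other filters, scalings, offsets for length and GC, a replicate block, thinning, counts divided by 2 (added after seeing the data), only the 8 WT mice, and leaving out each mouse. P-values measure only the spread between these mice. The mice were littermates housed in groups, and which of them shared a litter or cage is not given in the sources used here.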

Additional observations from a re-analysis of the deposited data

Results flagged for a closer look

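The interaction passed an unadjusted p under 0.01 for 16 named genes, beside 162 (0.829%) of all genes tested, although the smallest adjusted interaction p of all genes was 0.845. The interaction log2 fold change, WT minus Tg2576, was above 0 for 10 of them. It was 0.87 for Wnt4, 0.51 for Npas2, 3.05 for Ly6c2, 0.61 for Sox11, 0.80 for Traip and 1.02 for Sertad1. It was 0.67 for both Gpx1 and Stx1a, 1.63 for Otof and 0.47 for Mchr1. It was below 0 for the other 6, at -1.08 for Pcdhb8, -0.54 for Dock10, -0.78 for Stra6, -0.54 for Klhl9, -0.50 for Chd7 and -1.11 for Pcdhb6. The genes were chosen on their WT effect, which is part of the interaction.

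A mouse stood far from the others of its group in 2 cases, and such a gap arises by chance in about 1 of 20 groups. Traip was lowest among the vehicle mice in WT vehicle replicate 3, at 23.5 CPM, in a group whose whole range was narrow. Hba-a2, a haemoglobin gene, was highest among the DHA mice in WT DHA replicate 4, at 114 CPM.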

How the results depend on the processing

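The count of 270 genes with p under 0.01 in WT mice became 431 when only the 8 WT mice were fitted, 221 of them shared, and lay between 234 and 397 under the other 14 settings with all WT mice. Leaving out 1 mouse gave 155 to 319 genes. The count with an adjusted p under 0.05, which was 0, became 32 with DESeq2, 3 without the filter on low counts and 4 with only the 8 WT mice, and was 0 with each mouse left out. The interaction count of 162 became 247 with DESeq2 and 289 without the filter, and 87 to 241 with 1 mouse left out. The causes were not tested. With the GC offset the split of higher and lower calls moved from 153 and 117 to 128 and 130, and without the filter to 175 and 187. Some named genes short of the threshold in the main fit passed it under other settings with all WT mice. Slc7a11 and St18 passed in 6 of the 15 settings and Dnajb1 in 5. Per1, Tef, Olig2, Vamp2, Mvd and Ccn2 passed in 2, and Pmvk, P2ry12, Dbp, Egr1 and Hba-a2 in 1. The sign turned for 3 genes that had not passed. With 1 mouse left out, the log2 fold change of mt-Nd3 ran from -0.54 to 0.16 (above 0 without WT vehicle replicate 4), that of Cry1 from -0.010 to 0.15 (below 0 without WT vehicle replicate 1 or 4) and that of Fos from -0.18 to 0.35 (below 0 without WT vehicle replicate 2).

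Same-numbered DHA and vehicle mice did not deviate together (correlations -0.086, 0.0425, 0.18 and 0.0584), so the numbers were not taken as pairs. With the replicate block 311 genes had p under 0.01 and the interaction count was 116. With 4 mice a group and a median standard error of 0.171 on the log2 scale, differences near that size were mostly not detectable.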
